A study of Homo sapiens with 26 samples.

Results

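FOXA1 peaks centred in protein-coding exons were described in a ChIP-seq series on the BJ line, human fibroblasts derived from foreskin. A peak is a stretch of genome that the authors' peak caller found enriched for DNA pulled down with the protein. A peak of the FOXA1 list was taken as a coding-exon peak when it lay on chromosomes 1 to 22, its midpoint fell in coding sequence (CDS) of a protein-coding gene, and that midpoint was more than 1000 bp from every annotated transcript start. Genes and starts came from GENCODE 44 lifted to GRCh37, the sequence build also called hg19. Of 155652 FOXA1 peaks, 153247 lay on chromosomes 1 to 22 and 835 of these met the rule. They made up 0.545% of the autosomal peaks (95% Wilson interval 0.509 to 0.583%).

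Each protein used here carried a HALO tag, was expressed ectopically for 48 h, and was pulled down with an antibody to the tag. The constructs used here were FOXA1 itself, the FOXA1 variants named FOXA1dbd, FOXA1nhaa and FOXA1rraa in the labels, and HNF4A, another liver transcription factor. All of them were expressed in the same fibroblast line, and the labels give neither the promoter of the constructs nor whether clones were picked. Each of these 5 constructs had 2 ChIP libraries and 2 input libraries in the labels, but a single peak list each was analysed, so no value below has a replicate error and no p-value was computed. The samples of H2B with a HALO tag were not used here. The lists hold neither read counts nor expression, so the depth behind a peak is unknown and the labelled cell type was not checked against marker genes. Intervals on shares are 95% Wilson intervals, those on differences of shares 95% Newcombe intervals, and those on densities 95% Poisson intervals. All of them cover counting error over peaks only.

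FOXA1 is a forkhead transcription factor and a classic pioneer factor, a protein that can bind its sites on DNA wrapped in nucleosomes. It is best known from liver and other endoderm-derived tissues, where it works with factors such as HNF4A. Most of its sites lie in introns and between genes. Coding exons are under selection for the protein they encode, are on average richer in G and C than the introns around them, and are known to carry well-positioned nucleosomes, so they set a different sequence and chromatin background for such a factor.

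Sequences of 5 coding-exon peaks are shown because they give the kinds of site described below. All are from GRCh37 and read 5′ to 3′ along the coding strand of the gene. The first 2 come from high-scoring peaks with a forkhead core inside the coding sequence, and every base shown is coding. Here a forkhead core means TGTTTAC or TATTTAC on either strand, and the capitals mark it.
ADAD1, chr4:123333789-123333868, plus strand: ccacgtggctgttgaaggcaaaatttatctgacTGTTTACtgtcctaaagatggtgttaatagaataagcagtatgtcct
BLTP1, chr4:123252488-123252574, plus strand: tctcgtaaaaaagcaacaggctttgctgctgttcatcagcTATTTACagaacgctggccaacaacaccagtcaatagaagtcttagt

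The other 3 are the central 120 bp of peaks without a core in the coding sequence, and here the capitals mark coding bases and lower case the intron. SCYL2 held the highest-scoring peak of all. ODR4 shows a short exon that is covered whole by its peak, and ZNF644 a peak that lies inside a long exon.
SCYL2, chr12:100706170-100706289, plus strand: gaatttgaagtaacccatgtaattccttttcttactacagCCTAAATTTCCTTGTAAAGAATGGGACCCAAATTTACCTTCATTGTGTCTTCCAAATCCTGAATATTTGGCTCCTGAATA
ODR4, chr1:186363046-186363165, plus strand: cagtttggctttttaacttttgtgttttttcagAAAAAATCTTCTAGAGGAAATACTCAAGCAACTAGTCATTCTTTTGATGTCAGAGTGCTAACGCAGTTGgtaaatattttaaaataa
ZNF644, chr1:91406472-91406591, minus strand: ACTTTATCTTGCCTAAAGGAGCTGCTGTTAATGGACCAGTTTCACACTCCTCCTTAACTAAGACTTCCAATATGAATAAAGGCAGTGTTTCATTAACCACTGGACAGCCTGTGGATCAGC

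In ODR4 the first bases of the intron, gtaaata, are themselves a forkhead core on the other strand and also the splice donor. G and C made up 35% of the SCYL2 stretch, 30% of the ODR4 stretch and 42.5% of the ZNF644 stretch. All lay below the mean of 49.0% in the 200 bp around coding bases in general.

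The authors' score of a peak ran from 21 to 672 among coding-exon peaks, with a median of 127 and quartiles of 82 and 198. The median of all autosomal FOXA1 peaks was 124. Widths ran from 2 to 1771 bp with a median of 318 bp and quartiles of 209 and 499 bp, compared with a median of 301 bp for all FOXA1 peaks. Coding-exon peaks were therefore close to the rest of the list in score and somewhat wider at the upper quartile, which was 439 bp for all peaks. Rows of the list can be pieces of a peak: 56 coding-exon rows (6.71%) carried a name that marks a piece, compared with 4.15% of the other rows, and 17 rows were narrower than 50 bp. The 835 rows had 827 distinct peak names. At the threshold of 1000 bp, the nearest peaks kept were those in SOS1, an activator of Ras, at 1004 bp (score 240), E2F7, a cell cycle repressor, at 1006 bp (score 190), and TBK1, a kinase of innate immunity, at 1009 bp (score 150). The nearest peaks left out lay 1000, 1000 and 996 bp from a start and had scores of 65, 74 and 179.

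FOXA1 peak midpoints were scarcer in coding sequence than in the introns that flank it. Coding bases that could hold a member came to 21.8 Mb, or 0.812% of the bases examined, and held 38.3 midpoints per Mb. The density was 69.5 per Mb in introns, 100.8 per Mb in exons outside coding sequence, 66.3 per Mb within 1000 bp of a transcript start and 33.9 per Mb between genes. Coding exons thus ranked below every other place within genes and a little above the space between genes. Within 500 bp of a coding exon, introns held 103.3 midpoints per Mb, so that the density in coding exons was 0.371 times that of the flanking introns (0.345 to 0.398).

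The deficit grew with depth into the exon. At 0 to 50 bp from the nearest edge of a coding segment the density was 53.9 per Mb (49.6 to 58.2, 604 peaks). It was 32.3 per Mb at 50 to 100 bp, 14.9 per Mb at 100 to 200 bp and 9.55 per Mb (5.36 to 13.7, 20 peaks) at 200 to 500 bp. On the intron side it was 81.4 per Mb in the first 100 bp, rose to 120.6 per Mb (115.5 to 125.7) at 200 to 300 bp, and fell to 49.2 per Mb beyond 20000 bp. Peaks near coding exons were therefore most frequent a short way into the intron rather than at the exon. Deeper than 500 bp into an exon, where 33 peaks lay, the density did not go on falling, with 20.8 per Mb at 500 to 1000 bp and 12 per Mb beyond.

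**Figure D1:**
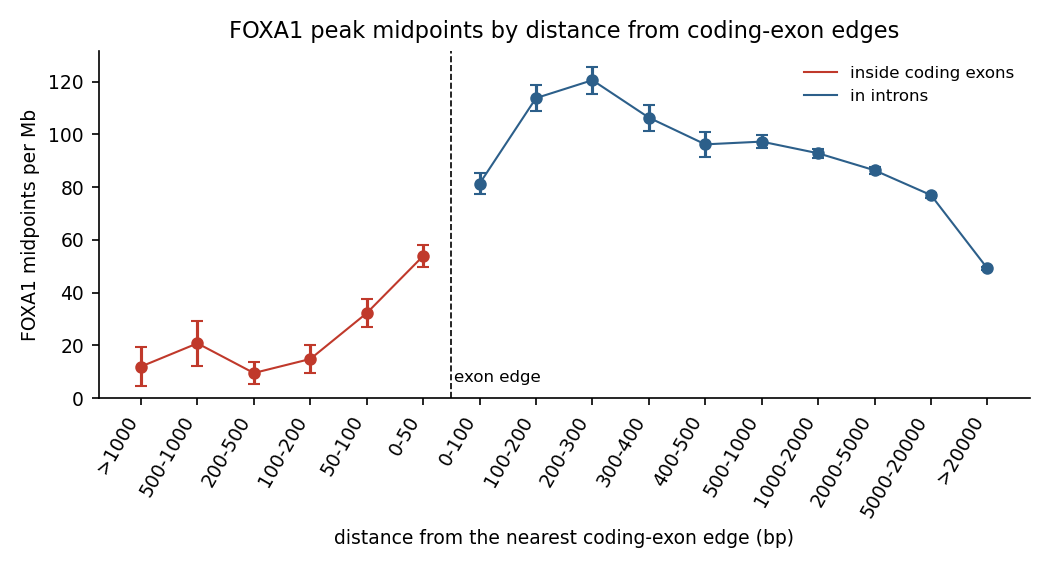
FOXA1 midpoints per Mb (y axis) against distance in bp from the nearest edge of a coding exon (x axis), inside coding exons on the left and in introns on the right; points are densities and bars 95% Poisson intervals over peaks. The density falls from 53.9 per Mb next to the edge to 9.55 per Mb at 200 to 500 bp inside the exon, and is highest, 120.6 per Mb, at 200 to 300 bp into the intron.

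The intron sides were not alike. Around 47399 internal exons of canonical transcripts, the intron upstream of the exon, which ends in the splice acceptor, held 108.9 midpoints per Mb (99.5 to 118.3) in its last 100 bp. The first 100 bp of the intron downstream, which begins with the splice donor, held 86.1 per Mb (77.7 to 94.4). At 100 to 200 bp the upstream side held 138.6 per Mb (128 to 149.2) and the downstream side 111.8 per Mb (102.3 to 121.3). From 200 bp on the intervals of both sides overlapped. Within the exons themselves the upstream portion held 48.5 per Mb (41.3 to 55.7) and the downstream portion 54.4 per Mb (46.7 to 62.0), which overlap.

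Base composition differed between coding and intron bases in the same direction. G and C made up a mean of 35.2% of the central 200 bp of coding-exon peaks, compared with 49.0% around all coding bases that could hold a member, 32.6% in intron peaks and 40.6% around intron bases. FOXA1 peaks in coding exons thus sat in stretches poor in G and C, as did the intron peaks. Where G and C made up 25 to 30% of the 200 bp around a base, coding exons held 226 midpoints per Mb. They held 171 per Mb at 30 to 35%, 86.6 per Mb at 35 to 40%, 39.1 per Mb at 40 to 45% and 3.68 per Mb at 45 to 50%. Only 3 of the 835 midpoints lay in stretches of 50 to 55%, and none in richer ones, although 12.2% and 33.4% of coding bases lay there.

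In every class of composition from 20 to 45%, coding exons held more midpoints per Mb than introns. At 40 to 45% the density was 39.1 per Mb in coding exons, 22.8 per Mb in introns and 13.3 per Mb between genes. At 30 to 35% it was 171 per Mb in coding exons, 158 per Mb in introns and 74.0 per Mb between genes. At 35 to 40% it was 86.6 per Mb in coding exons and 76.8 per Mb in introns. At 45 to 50%, with 11 midpoints in coding exons, these lay below introns, at 3.68 and 4.90 per Mb. At 50 to 55%, with 3 midpoints, they lay above, at 1.13 and 0.983 per Mb. At 55 to 60% coding exons held no midpoint and introns 14, or 0.228 per Mb. The order in these richer classes thus rests on few coding-exon midpoints. When the intron densities were weighted to the composition of coding bases, in classes of 5 percentage points, coding exons held 1.17 times the density of all introns and 2.38 times that of the space between genes. Against flanking introns alone the ratio rose from 0.371 to 0.771 and stayed below 1. These weighted values are descriptions with no error attached, and no mechanism was tested.

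**Figure D2:**
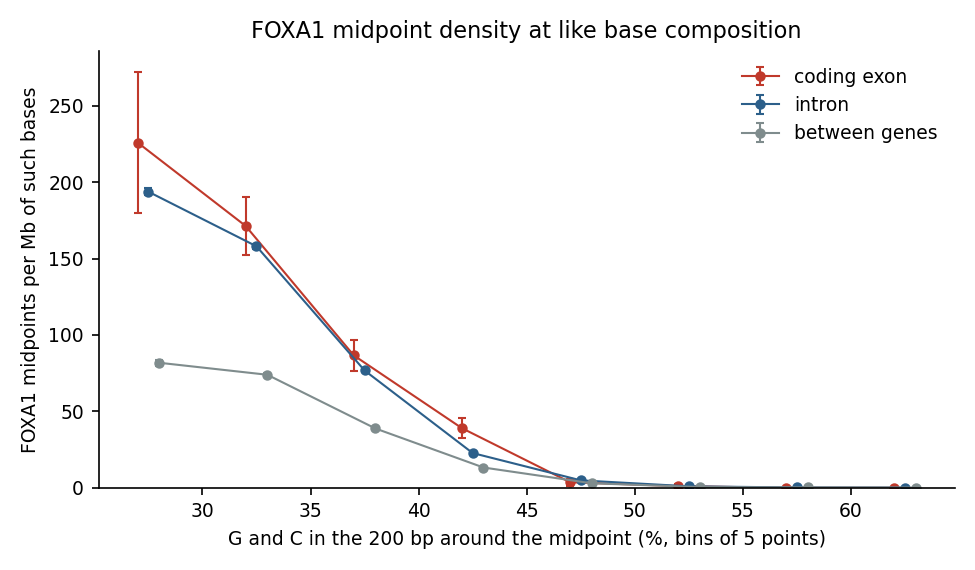
FOXA1 midpoints per Mb of bases (y axis) by the share of G and C in the surrounding 200 bp (x axis, percent, bins of 5 points from 25%), for coding exons, introns and the space between genes; bars are 95% Poisson intervals over peaks. In all 3 places the density falls towards zero above 45%, and at 40 to 45% coding exons (39.1 per Mb) lie above introns (22.8 per Mb).

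Short exons held most of the peaks. Coding segments under 100 bp held 232 peaks at 80.0 per Mb, those of 100 to 150 bp 269 peaks at 55.6 per Mb, and those of 150 to 200 bp 163 peaks at 41.2 per Mb. Segments of 200 to 400 bp held 22.8 per Mb and those of 400 to 1000 bp 7.75 per Mb, the lowest. Density in segments of 1000 to 3000 bp was 17.5 per Mb, and in longer ones 16.2 per Mb. The 200 bp around the bases of longer segments were also richer in G and C. The mean reached 54.4% at 400 to 1000 bp, compared with 43.6% under 100 bp. The composition of a segment here is this mean over its bases. For short segments it takes in flanking bases, so length and composition were not fully separated. Among segments under 40% the density still fell with length, from 168.8 per Mb under 100 bp to 62.7 per Mb at 400 bp or more, whereas between 40 and 50% it showed no such order, at 14.7 and 13 per Mb. The class under 40% is wide: density was 279.3 per Mb at 25 to 30% and 99.0 per Mb at 35 to 40%. At the density of all segments of like composition, segments of 400 to 1000 bp would have held 36.2 peaks and held 19, a ratio of 0.525. Below 400 bp the ratio showed no such deficit, at 1.06 under 100 bp, 1.1 at 100 to 150 bp, 1.11 at 150 to 200 bp and 0.977 at 200 to 400 bp. It was 0.694 at 1000 to 3000 bp and 0.562 in longer segments.

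Internal exons held most peaks per base. Of the 789 peaks centred in a coding exon of a canonical transcript, 681 lay in internal coding exons at 45.6 per Mb. The first coding exon held 22 peaks at 25.8 per Mb, the last 76 at 18.7 per Mb and single coding exons 10 at 10.1 per Mb.

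Most of these peaks reached beyond the exon. The peak covered the whole coding segment in 574 cases (68.7%), crossed 1 edge in 170 (20.4%) and lay wholly inside in 91 (10.9%). At the median 41.6% of a peak's bases were coding, and 349 peaks (41.8%) had 50% or more. Peaks that covered a segment had a median score of 143 and a median width of 405.5 bp. Those inside a segment had 100 and 197 bp, and those across an edge 90.5 and 189.5 bp. The widths follow in part from the grouping, since only a peak longer than a segment can cover it. In all, 6365 FOXA1 peaks (4.15%) touched at least 1 coding base.

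Coding-exon peaks lay among other FOXA1 peaks. The median distance to the next FOXA1 peak was 1765 bp, compared with 2017 bp for peaks in other exons, 2197 bp for those near a start, 2497 bp for intron peaks and 4208 bp for peaks between genes. Another row of the list lay within 1000 bp of 30.8% of them, compared with 29.5% in other exons, 26.6% near a start, 24.2% in introns and 17.6% between genes. Pieces were not joined for these distances, so the next row can be a piece of the same peak, as in FAT1. Pieces were more frequent among coding-exon rows (6.71%) than among the other rows (4.15%). Among genes with at least 20000 bp of introns, grouped into quintiles by their intron density of FOXA1 peaks, the coding density rose from 2.68 per Mb in the lowest quintile through 9.97, 30.2 and 57.8 to 128.1 per Mb in the highest. A coding-exon peak was found in 0.337% of the genes of the lowest quintile and in 19% of those of the highest. Of the 714 genes with such a peak, 681 (95.4%) also held an intron peak, compared with 8539 of 16742 genes (51.0%) without one. This last comparison set no minimum of intron bases, and the genes were not matched for intron length. Base composition is shared by a gene's exons and introns. Its part in the relation of coding and intron peaks was not tested.

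The 835 peaks fell in 828 coding segments of 714 genes. A single peak was found in 613 genes, 2 in 86, 3 in 11, 4 in 3 and 5 in 1 gene, and 13 peaks lay in coding sequence of 2 or more genes. DST, which encodes the giant cytoskeletal linker dystonin, held 5 peaks in 24.9 kb of coding sequence and 126 in its introns. RICTOR, a core subunit of the kinase complex mTORC2, held 4 in 4.35 kb with scores up to 377, AKAP9, a centrosomal and Golgi scaffold for protein kinase A, 4 in 9.98 kb, and BIRC6, a giant inhibitor of apoptosis, 4 in 10.7 kb. The genes with 3 peaks and the least coding sequence were CAPRIN1 (an RNA-binding protein of stress granules), STRN3 (a striatin), INTS8 (a subunit of the Integrator complex), ITGB1 (the integrin beta-1 chain), PGAP1 (an enzyme of GPI anchors) and TTC27. CAPRIN1 had them in 1.26 kb of coding sequence, and INTS8 held as many in coding exons as in its 47.3 kb of introns.

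Only 7 coding segments held 2 or more rows. In 5 of them, in ATR, MIOS, BBS10, ZFYVE9 and FAT1, both rows had the same peak name and score and were pieces of 1 peak. In CEP126 and DST they were different peaks. The DST pair, with scores of 116 and 296, lay in an exon of 5508 bp at chr6:56468635-56474142.

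The highest-scoring peaks were spread over 10 genes. The first, with a score of 672, was 795 bp wide at chr12:100705833-100706627 over coding exon 5 of 17 of SCYL2, a pseudokinase of clathrin-coated vesicles. A peak of score 640 lay over the last of 8 coding exons of MBNL2, a splicing regulator, at chr13:98043162-98044011, and was a piece. ZNF292, a zinc finger protein, had a peak of score 635 at chr6:87964263-87964705, near the start of its 7149 bp last coding exon, and 76.3% of it was coding. ADAD1, a germ cell RNA-binding protein, had a peak of score 601 at chr4:123333695-123334082 in coding exon 8 of 11. In ITGB1 a piece of 189 bp with a score of 579 lay at chr10:33212423-33212611 in coding exon 6 of 15. GFM2, a mitochondrial factor of ribosome recycling, had a piece of score 568 and 1126 bp at chr5:74058962-74060087, of which only 5.60% was coding. RAB4A, which acts in endosome recycling, followed with 544. The last 3 were SCRN3 at chr2:175292418-175292636 (536), ODR4 at chr1:186362610-186363601 (527) and INTS7, another Integrator subunit, at chr1:212193154-212193799 (518). These 10 differed widely in shape: SCRN3 was 82.2% coding in 219 bp, while ODR4 was 6.96% coding in 992 bp.

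By chromosome the coding density ran from 65.4 per Mb on chromosome 4 and 61.5 on chromosome 14 to 8.73 on chromosome 22 and 0.700 on chromosome 19. Chromosome 19 held 1 coding-exon peak in 1.43 Mb of coding sequence, with a score of 120. The 200 bp around coding bases had a mean of 43.7% G and C on chromosome 4 and 55.6% on chromosome 19. The density of all FOXA1 peaks was 61.1 per Mb on chromosome 4 and 16.7 per Mb on chromosome 19.

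Gene families were counted to show where such peaks fell. Each list is set beside all genes, of which 714 of 17456 (4.09%) held a coding-exon peak, and beside the number of peaks it would hold at the density of all coding segments of like composition. No family was tested, and the numbers are descriptions. Zinc finger genes held 11 peaks in 10 of 544 genes (1.84%), with 38.7 at the density of like composition and 28.3 at that of like composition and length. Within this list the peak of ZNF292 named above had the highest score. The zinc finger count was thus below the number at like composition, with or without like length.

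Motor proteins (kinesins, myosins and dyneins) held 20 peaks in 15 of 99 genes, with 20.1 at like composition. MYO5A, a vesicle-carrying myosin, had the highest score of these, 306. Giant cytoskeletal and channel genes held 9 peaks in 4 of 25 genes, with 12.6 at like composition, led by DST (296). Chromatin regulators held 7 in 4 of 35 genes, with 4.19 at like composition, led by the remodeller CHD9 (378). Laminins and integrins held 6 in 4 of 41 genes, with 3.37, led by ITGB1 (579).

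Solute carriers held 10 peaks in 10 of 352 genes, with 13 at like composition, led by the sodium-proton exchanger SLC9A8 (498). ADAM and ADAMTS proteases held 3 in 3 of 39 genes, with 4.05 at like composition, led by ADAM32 (156). Adhesion receptors of the ADGR family held 3 in 2 of 26 genes, with 2.63, led by ADGRL4 (159). Collagens held 2 in 2 of 42 genes, with 4.21, led by COL5A2 (188), and the cadherin superfamily 2 in 1 of 97 genes, FAT1 (208), with 4.41. The 2 FAT1 rows were pieces of 1 peak. Genes of the fibroblast matrix held 2 in 2 of 21 genes, with 1.28, led by FN1, which encodes fibronectin (143). Axon guidance genes held 1 in 61 genes, in the ligand SLIT2 (44), with 2.46. The 47 forkhead genes, 27 HOX genes, 17 mucins, 55 keratins, 190 olfactory receptors, 61 ribosomal protein genes and 9 histone genes held none. In these 7 lists at most 2.21 peaks, for olfactory receptors, would have been held at like composition.

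**Figure D3:**
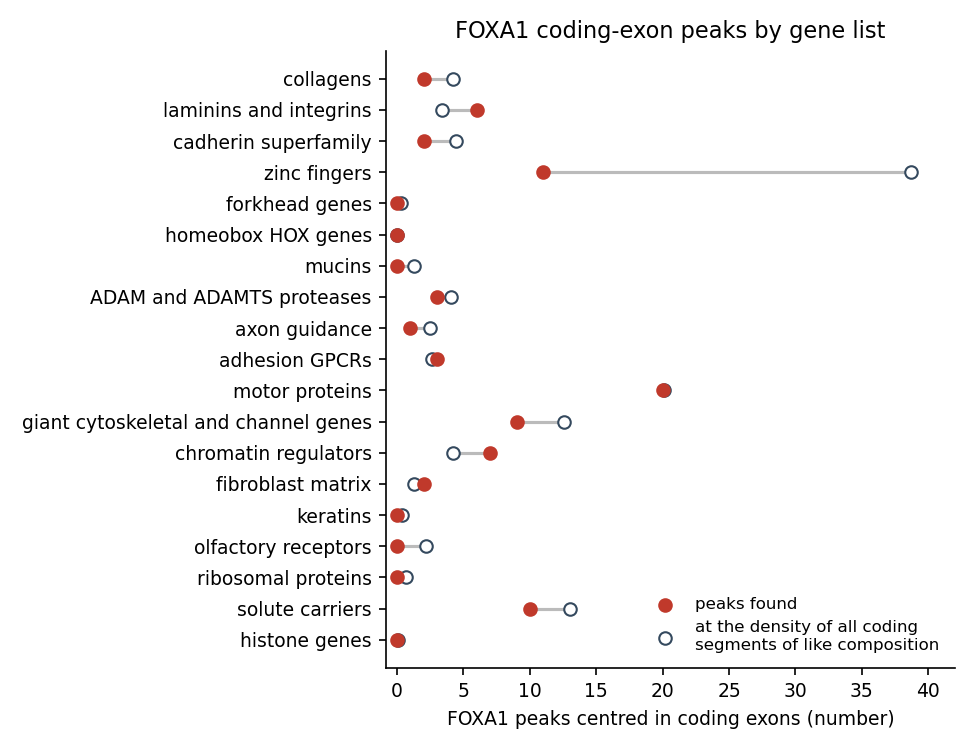
Number of FOXA1 peaks centred in coding exons (x axis) for each gene list (y axis), as found (filled) and at the density of all coding segments of like base composition (open); no error is drawn because each count comes from 1 peak list. Zinc finger genes stand apart with 11 peaks found and 38.7 at like composition, while motor proteins held 20 and 20.1.

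Forkhead cores were more frequent in these peaks than in coding sequence at large. Of the 835, 139 (16.6%, 14.3 to 19.3%) had TGTTTAC or TATTTAC within the central 200 bp, where all autosomal FOXA1 peaks had 18.2%. Of all coding bases that could hold a member, 4.37% would as a centre have had such a core, so the peaks exceeded their background 3.81-fold. Intron peaks had a core in 18.1% of cases against 7.43% of intron bases, 2.44-fold. The share in coding-exon peaks was 1.46 percentage points below that of intron peaks (interval -3.85 to 1.22, which includes no difference). TGTTTAC alone was found in 55 peaks (6.59%), where all autosomal FOXA1 peaks had 7.345%, against 2.18% of coding bases. At G and C of 30 to 35% the share with a core was 17.2% of coding-exon peaks and 11.1% of coding bases. At 35 to 40% it was 16.7 and 8.55%, so the excess was smaller within classes of like composition. For introns the shares were 18.0% of peaks and 11.35% of bases at 30 to 35%, and 15.9 and 8.62% at 35 to 40%. Within these classes coding exons and introns were thus close, and 3.81 against 2.44 is not a comparison at like composition.

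Other motifs were searched in the same windows on both strands. The reversed cores CATTTAT and CATTTGT, which hold the same letters in another order, were found in 116 peaks (13.9%, 11.7 to 16.4%; 19.8% of all FOXA1 peaks) and 7.23% of coding bases, 1.92-fold. TGANTCA, the motif of AP-1 factors, was found in 122 peaks (14.6%, 12.4 to 17.2%; 14.9% of all FOXA1 peaks) and 5.06% of coding bases, 2.89-fold. An HNF4 core, CAAAGTCCA, was found in 2 peaks (0.240%; 0.262% of all FOXA1 peaks) and 0.328% of coding bases. A match is a description of the letters and not a binding site. The ranking of the excess, not matched for base composition, was thus forkhead, AP-1 and reversed cores. AP-1 motifs were nearly as common in these peaks as forkhead cores.

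Cores lay both in and beside the exon. A core wholly in coding sequence was found in 66 peaks and one wholly outside it in 75, including 4 with both. Per kb there were 0.682 cores in the coding bases of the windows and 1.23 in their other bases, compared with 0.148 in all coding bases that could hold a member. G and C made up 39.0% of the coding and 29.3% of the other bases of the windows, and these densities were not matched for composition. The 5 highest-scoring peaks with a coding core were in ADAD1 (601), RAB4A (544), BLTP1, a lipid transfer protein (422), INTS8 (377) and BTAF1, an ATPase that removes the TATA-binding protein from DNA (353). The BTAF1 peak, at chr10:93743708-93744412, had 2 coding cores.

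The reading frame limits where cores can occur. In canonical transcripts 2984 cores lay in coding sequence, 60 of them in windows of these peaks. None had the 1 frame that would place the stop codon TAA of GTAAATA or GTAAACA in frame, and the other 5 frames held between 426 and 726. In the windows the 5 frames held 7, 9, 13, 18 and 13 cores, and 2.01% of all coding cores lay in such a window. Splice donors are a special place outside the exon, since they begin with GT. Of 101847 donors after coding exons, 1026 (1.01%) read GTAAACA or GTAAATA, as in ODR4 above. Of the 511 donors in windows of coding-exon peaks, 22 (4.31%, 2.86 to 6.43%) did. These 22 were part of the 83 cores in the windows that were not wholly coding. The donors compared were not matched for base composition.

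The peak lists of the other constructs were compared next, to see which coding-exon peaks they overlapped by at least 1 bp. The lists are not independent. All 104 FOXA1dbd rows that overlapped a coding-exon peak lay wholly inside it, as did 99.6% of those that overlapped other FOXA1 peaks, and 96.2% of all FOXA1dbd rows overlapped a FOXA1 peak. The FOXA1rraa list held 22824 autosomal rows with the coordinates of FOXA1 rows and 41016 with those of FOXA1nhaa rows. The 6603 rows that were neither overlapped no FOXA1 peak at all. An overlap with FOXA1rraa is therefore always an overlap with a row that the FOXA1 or the FOXA1nhaa list holds too.

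FOXA1dbd peaks were found at fewer of the coding-exon peaks than of other FOXA1 peaks. They overlapped 104 of 835 (12.5%, 10.4 to 14.9%), where they overlapped 17.5% of all autosomal FOXA1 peaks. The difference from FOXA1 peaks elsewhere was -5.08 percentage points (-7.16 to -2.66). It was -4.53 points (-6.61 to -2.11) against intron peaks, -3.85 (-6.10 to -1.30) against peaks in other exons and -6.62 (-8.73 to -4.17) against peaks between genes. Every one of these intervals lay below 0. When other peaks were weighted to the scores, widths and base composition of the coding-exon peaks, 20.1% of them were overlapped.

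The share was lower in each quintile of the FOXA1 score, but in the upper 2 the interval of the difference included 0. In the lowest quintile 4.67% of coding-exon peaks and 9.50% of other peaks were overlapped by FOXA1dbd, in the second 6.32 and 11.6%, and in the third 7.57 and 15.0%. In the fourth the shares were 17.0 and 19.6%, a difference of -2.54 points (-7.77 to 4.37). In the highest quintile the shares were 26.3 and 32.0%, with an interval of the difference of -11.7 to 1.18 points. Peaks that crossed 1 edge of an exon were overlapped in 10 of 170 cases (5.88%, 3.23 to 10.5%), those that covered an exon in 82 of 574 (14.3%, 11.7 to 17.4%) and those inside an exon in 12 of 91 (13.2%, 7.71 to 21.7%). The FOXA1dbd list's own share of peaks centred in coding exons was 0.352% (0.290 to 0.427%, 101 peaks), below the 0.545% of FOXA1.

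FOXA1nhaa peaks overlapped 371 (44.4%, 41.1 to 47.8%), where they overlapped 40.1% of all autosomal FOXA1 peaks. The difference from FOXA1 peaks elsewhere was 4.36 percentage points (1.01 to 7.76). By place it was 3.62 points (0.271 to 7.02) against intron peaks, 9.33 (5.95 to 12.7) against peaks between genes and -2.17 (-5.70 to 1.42) against peaks in other exons. The difference from all peaks elsewhere included 0 with an overlap of at least 50% of the shorter peak, at 2.43 points (-0.856 to 5.80), and with midpoints within 200 bp, at 1.03 points (-2.13 to 4.33). Other peaks weighted to the scores, widths and composition of the coding-exon peaks were overlapped in 44.3% of cases. The share rose with score, from 25.3% in the lowest quintile to 64.2% in the highest, as it did for other peaks (25.6 to 63.1%). Of the FOXA1nhaa list itself 749 peaks (0.715%, 0.666 to 0.768%) were centred in coding exons, and 9.61% of these had a forkhead core.

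FOXA1rraa peaks overlapped 333 (39.9%, 36.6 to 43.2%), where they overlapped 40.1% of all autosomal FOXA1 peaks. Of these 333, 110 were themselves rows of the FOXA1rraa list, and the other 223 were overlapped by a row shared with FOXA1nhaa. After removal of rows with FOXA1 coordinates, the share was 26.7% (23.8 to 29.8%), where it was 25.2% of all FOXA1 peaks. Neither share differed from that of all FOXA1 peaks elsewhere beyond counting error, with differences of -0.226 points (-3.50 to 3.14) and 1.5 points (-1.39 to 4.61). Other peaks weighted to the scores, widths and composition of the coding-exon peaks were overlapped by all FOXA1rraa rows in 43.1% of cases. By place, some differences lay beyond counting error and others did not. All FOXA1rraa rows overlapped 47.4% of the peaks in other exons, which left coding-exon peaks -7.48 points (-10.9 to -3.93) apart. The intervals included 0 against intron peaks, at -0.631 points (-3.91 to 2.74), and peaks near a start, at -1.27 (-4.65 to 2.19). Against peaks between genes the difference was 3.01 points (-0.296 to 6.41). After the same removal the difference was -4.56 points (-7.65 to -1.28) from other exons and 5.19 points (2.26 to 8.32) from peaks between genes. It included 0 for intron peaks, at 0.974 points (-1.93 to 4.09), and for peaks near a start, at -0.319 (-3.30 to 2.87).

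HNF4A peaks overlapped 14 (1.68%, 1.00 to 2.80%), where they overlapped 1.70% of all autosomal FOXA1 peaks. Other peaks weighted to the scores, widths and composition of the coding-exon peaks were overlapped in 2.55% of cases. In 7 of the 14 the HNF4A row lay wholly inside the FOXA1 row, compared with 16.9% of such overlaps elsewhere. Of the 14, 8 were in the highest quintile of the FOXA1 score, which held 179 coding-exon peaks. HNF4A overlapped 4.47% of these 179, a difference of 2.51 points (0.312 to 6.61) from other peaks of that quintile. In each lower quintile the coding-exon share was below that of other peaks, with an interval that included no difference. These quintile shares rest on few overlapped peaks. The HNF4A list's own share of peaks in coding exons was the highest of the 5 constructs, 0.874% (0.785 to 0.973%, 331 peaks).

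**Figure D4:**
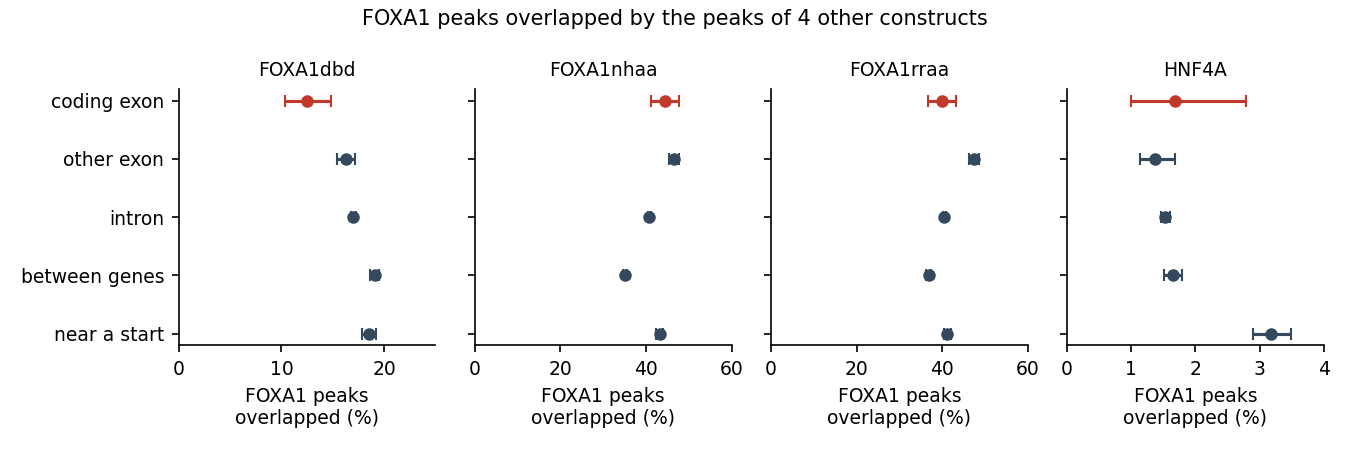
Share of FOXA1 peaks overlapped by at least 1 bp by each other list (x axis, percent, on a scale of its own in each panel), by place of the FOXA1 midpoint (y axis); bars are 95% Wilson intervals over peaks. For FOXA1dbd the coding-exon share of 12.5% lies below the other 4 places, which range from 16.3 to 19.1%.

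Overlap by at least 1 of the 4 lists was seen for 504 peaks (60.4%, 57.0 to 63.6%), where it was 59.3% of all autosomal FOXA1 peaks, and 331 had none. All 3 variants overlapped 52 (6.23%, 4.78 to 8.08%), where they overlapped 8.32% of all FOXA1 peaks, and none of the 3 overlapped 333 (39.9%), where it was 41.1%. FOXA1nhaa and FOXA1rraa together with no other list made the largest overlapped group, 171 peaks (20.5%, compared with 16.7% of other FOXA1 peaks). Its median score was 177, and in every one of its peaks a single row stood in both lists. FOXA1nhaa alone overlapped 134 (16.05%, compared with 12.65% of other peaks, median score 113.5). FOXA1rraa alone overlapped 89 (10.7 against 11.6%, median score 143) and FOXA1dbd alone 21 (2.5 against 3.8%, median score 139). Peaks without overlap had a median score of 97 and a median width of 249 bp, and those overlapped by all 3 variants and not HNF4A 241 and 545 bp.

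Absence of overlap was not limited to low scores. The highest-scoring peaks overlapped by none of the 4 lists were in ITGB1 (579), SCRN3 (536), ZNF644 (502), RICTOR (377) and DCAF13, a factor of ribosome assembly (353). They were 137 to 344 bp wide, and the ZNF644 peak, at chr1:91406464-91406600, lay wholly in an exon of 3038 bp. The ITGB1 row was a piece of a peak, and its lack of overlap covers that piece only. At the other end, 7 peaks (0.838%, compared with 0.432% of other FOXA1 peaks) were overlapped by all 3 variants and HNF4A. The 5 with the highest scores were in ODR4 (527), ARHGAP18 (417), EPB41L5, a FERM domain protein (347), RECK, a membrane-bound inhibitor of metalloproteinases (296), and IL31RA, a cytokine receptor chain (227). These 5 were 763 to 992 bp wide. G and C made up 53% of the central window in EPB41L5 and 48.5% in ARHGAP18, far above the mean of 35.2%, and 28% in ODR4. Their coordinates were chr6:129928658-129929420 for ARHGAP18, chr2:120861221-120862167 for EPB41L5, chr9:36101630-36102558 for RECK and chr5:55164235-55165151 for IL31RA.

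**Figure D5:**
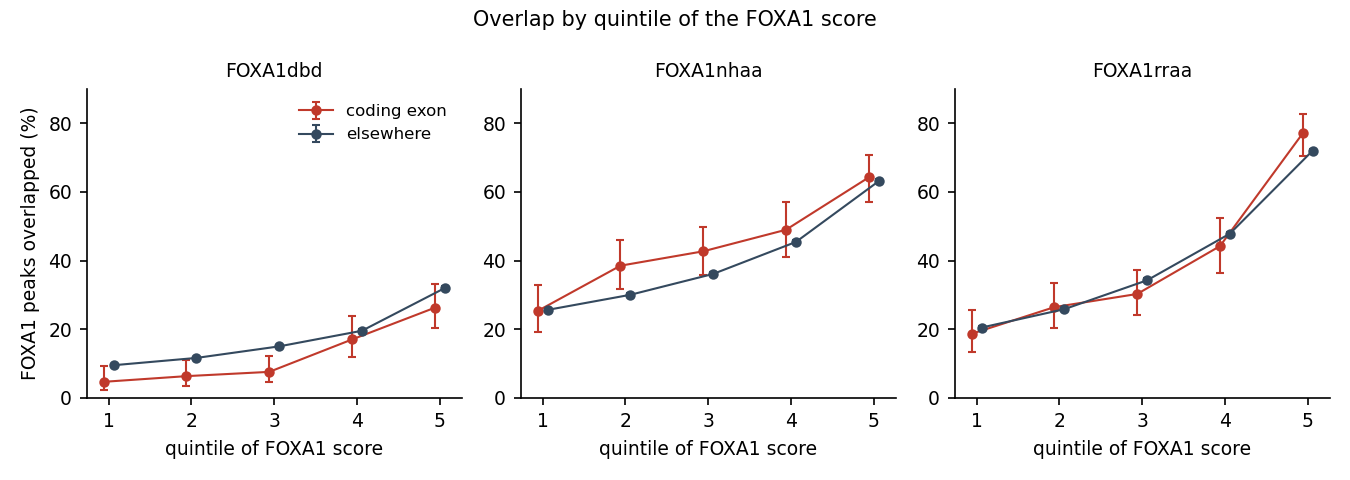
Share of FOXA1 peaks overlapped (y axis, percent) by quintile of the FOXA1 score over the whole list (x axis, 1 lowest), for peaks in coding exons and elsewhere; bars are 95% Wilson intervals over peaks. All shares rise with score, and for FOXA1dbd the coding-exon points lie below the others in each quintile, from 4.67 against 9.50% to 26.3 against 32.0%.

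Overlapping peaks of other lists were often centred outside the exon. The nearest overlapping FOXA1nhaa peak was centred in the same coding segment in 168 of 371 cases (45.3%, 40.3 to 50.4%), at a median distance of 92 bp between midpoints. For FOXA1dbd it was 52 of 104 (50%, 40.6 to 59.4%) and 53 bp, and for HNF4A 11 of 14 and 59 bp. For FOXA1rraa it was 203 of 333 (61.0%), of which 110 are the FOXA1 rows themselves.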

How the data were processed

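The peak lists were used as the authors deposited them, with no read-level step. The submitters' processing notes name Bowtie2 2.3.4.1, Picard, GATK 4.2.6.0, bedtools 2.27.1, MACS2 2.2.7.1 and deepTools 3.5.0 and the build hg19, without roles. Whether peaks were called on pooled libraries, the thresholds and the use of inputs are not given in the sources used here. The deposited FOXA1 lists, a full one and a down-sampled one, give a score per peak. The 4 other deposited lists also give the authors' fold enrichment (a ratio) and −log10 p-values and q-values, which were not used. No peak end passed the end of its GRCh37 chromosome.

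Each midpoint, and each base of chromosomes 1 to 22 outside runs of unknown bases, was assigned in order to within 1000 bp of a start, coding, other exon, intron or between genes (Python 3.11.15, numpy 2.4.6, pandas 2.3.3). Motifs and composition were read in the central 200 bp. Overlap functions were tested on simulated peaks, and Wilson intervals against a separate implementation. The amount of eligible coding sequence was checked at random positions of chromosome 21. The Newcombe and Poisson intervals and the other classes of bases were not tested in this way. Sequences are shown for 5 of the named peaks. Exon numbers refer to canonical transcripts. Peaks and genes were named by rule: the 10 highest scores, the 5 highest in each overlap or core group, the 10 genes with most peaks, the 5 exons with most rows, the 3 peaks on each side of the threshold and the highest score of each gene list. The 7 exons with 2 rows tied and are all named, and the ODR4 donor was singled out after its sequence was seen. The peaks, gene lists and rules were chosen with earlier results of these data known. The alternatives tried are given in the closing section.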

Additional observations from a re-analysis of the deposited data

How the results depend on the processing

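No paired analysis was possible because the lists carry no replicate numbers, and with 1 list per construct leaving out a replicate was not possible either. Of 84 values under alternatives, 63 stayed within counting error of the value given (for the number of peaks, within 1.5 times) and 21 moved. With at least 50% of the bases in coding sequence in place of the midpoint, 358 peaks met the rule. Of these, 8.10% were overlapped by FOXA1dbd, 36.6% by FOXA1nhaa and 27.7% by FOXA1rraa, with a median score of 94 and a median width of 208.5 bp. All autosomal FOXA1 peaks had 17.5, 40.1 and 40.1%, with a median score of 124. With rows of 1 name joined the median width was 369 bp. In the down-sampled FOXA1 list, 35.4% were overlapped by FOXA1rraa, 20% had a core and the median width was 283 bp. With 50% of the shorter peak shared, FOXA1nhaa overlapped 40.2%, and with midpoints within 200 bp FOXA1nhaa overlapped 34.7% and FOXA1rraa 33.7%. Of other FOXA1 peaks these rules gave 37.8, 33.7 and 36.0%. Among the top 50% of the FOXA1 list by score the overlaps were 19.2% (FOXA1dbd), 53.5% (FOXA1nhaa) and 56.0% (FOXA1rraa). Overlap rose with score for other FOXA1 peaks too, to 32.0, 63.1 and 72.05% in the highest quintile. For the top 50% and the down-sampled list, whether the shifts are particular to coding-exon peaks was not tested. Without rows that are FOXA1 rows, FOXA1rraa overlapped 26.7%, and without FOXA1 and FOXA1nhaa rows 0%. A core was found in 8.74% of central 100 bp windows, where all FOXA1 peaks had 10.06%. TGTTTAC alone was found in 6.59% of the 200 bp windows, where all FOXA1 peaks had 7.345%. The density ratio to flanking introns was 0.771 at the composition of coding bases. The piece, canonical transcript, narrow row, shared row and composition alternatives were chosen after seeing the data. Limits are that depth is unknown, that 1 list per construct gives no biological error, and that the lists share rows.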
